A study of Mus musculus with 5 samples.

Results

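The genes described here fold proteins in the endoplasmic reticulum (ER) or send misfolded ones to degradation, and most are linked to the transcription factors XBP1 and ATF6. They were chosen by a list of 36 mouse symbols, without a rule on their values but with earlier results of these data known. All 36 matched an identifier among the 56691 listed genes. By role they comprised 8 sensors and transcription factors, 11 chaperones and co-chaperones, 5 disulfide isomerases, 2 translocon subunits and 10 genes of ER-associated degradation (ERAD). RNA came from natural killer (NK) cells of mouse spleen that had been edited by CRISPR, with 3 libraries labelled Fli1 KO and 2 labelled NTC, an abbreviation that the labels do not spell out and that is taken here as the control. Fli1 encodes an ETS transcription factor, and the series title links it to protein homeostasis under nutrient stress. The labels leave out the strain, the age, the culture, the guides and the editing rate, and do not say that libraries came from separate mice. The p-values therefore reflect the spread among libraries alone, which may be technical.

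The ER holds its folding machinery in balance through the unfolded protein response. When unfolded proteins accumulate, the kinase and RNase IRE1 (gene Ern1) removes a short intron from Xbp1 mRNA, which then encodes an active transcription factor, and ATF6 moves to the Golgi, where proteases release its transcription factor domain. Both factors raise transcription of chaperones, isomerases and ERAD genes, many of them through the ER stress response element (ERSE). NK cells depend on this compartment to make perforin, granzymes and surface receptors, and the IRE1 to XBP1 branch is known to support their expansion.

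Library totals lay between 4718390 and 5643791 counts. Of the listed genes, 30580 passed the filter on low counts and were tested, including all 36 ER genes. Levels are counts-per-million (CPM) on the TMM scale. Background is the density of counts on 1453 olfactory and vomeronasal receptor genes, scaled to each gene's exon length. Of the 36 genes, 32 lay over 3 times background. Fli1 RNA itself stood at 390, 320 and 361 CPM in Fli1 KO and at 322 and 279 CPM in NTC. Such whole-gene counts cannot show a small insertion or deletion, so the directions below rest on the labels. All 9 NK markers examined lay over 3 times background, against 0 of 6 B cell, 0 of 8 T cell, 0 of 5 neutrophil, 0 of 5 erythroid and 1 of 4 plasmacytoid dendritic cell markers (Bst2). The NTC libraries differed more from each other than any pair of Fli1 KO libraries did (chi-square per degree of freedom 35.65 against 3.94 to 7.58 over 7603 genes).

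Xbp1 and Hspa5 were the only 2 of the 36 genes called higher in Fli1 KO by edgeR's quasi-likelihood test at an adjusted p under 0.05, where 0.458% of all tested genes were called higher. edgeR called 0 of the 36 lower, as did DESeq2 and limma-voom (0 at an unadjusted p under 0.05), where 0.0883% of all tested genes were called lower. Most of the others leaned higher by less. The log2 fold change was positive in 32 of 36 genes, with a median of 0.34, against −0.02 over all tested genes and 0.11 over the 7603 genes more than 3 times above background, of which 70.5% were positive. At an unadjusted p under 0.05 there were 17 higher and 0 lower ER genes (5.23% and 3.71% of all tested genes). Among genes over 3 times background, 15.4% were higher at that level and 1.71% were called higher. The 3 Fli1 KO libraries lay above both NTC libraries in 12 of the 36 genes and below both in 1 (11.9% and 13.7% of all tested genes, but 26.3% and 7.8% of those over 3 times background).

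**Figure D1:**
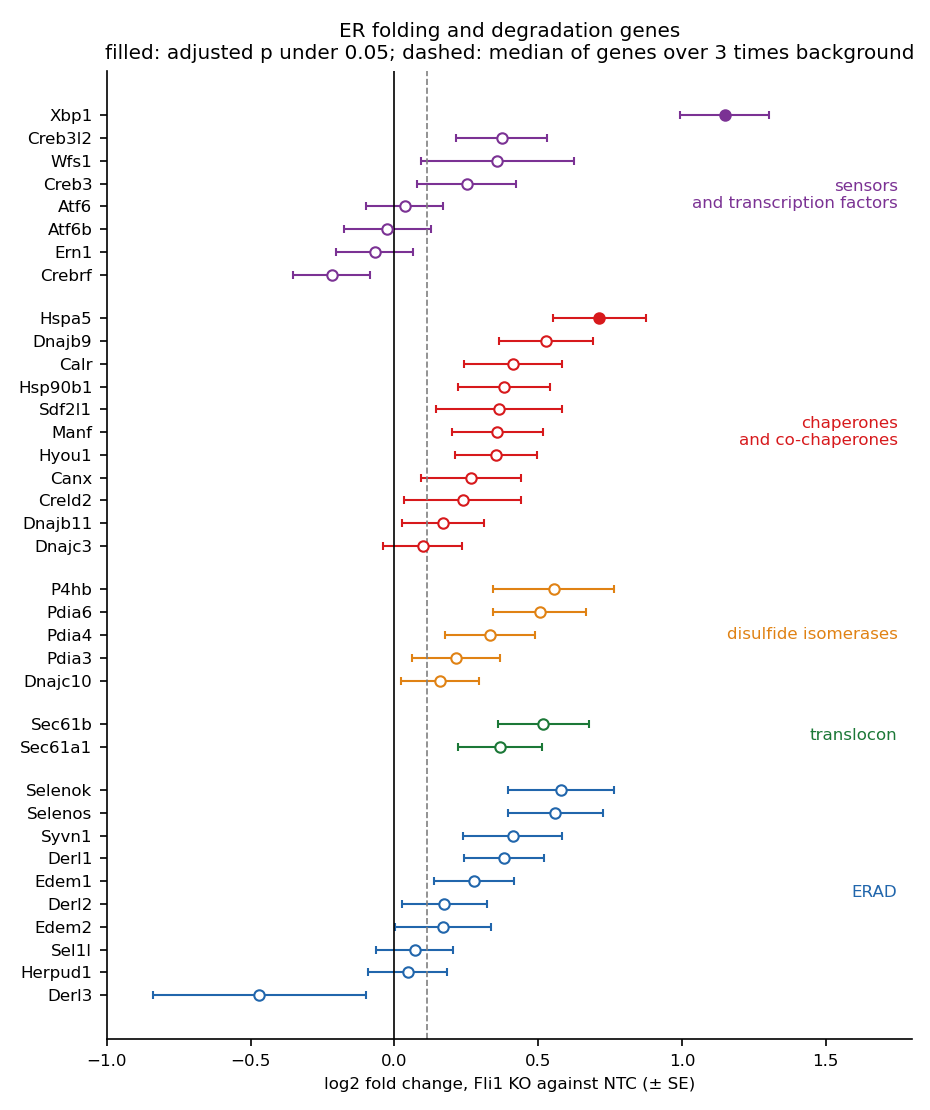
Log2 fold change of each of the 36 genes in Fli1 KO (3 libraries) against NTC (2 libraries), grouped by role, with bars for the SE. Filled points, Xbp1 at 1.15 and Hspa5 at 0.71, were called by edgeR, and the dashed line at 0.11 is the median of the genes over 3 times background.

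Among the sensors and transcription factors, Xbp1 rose and the sensors that act upstream of it or beside it were not called. Xbp1 (ENSMUSG00000020484, GRCm38 chromosome 11, 5520659 to 5525893, plus strand) stood at 129, 109 and 128 CPM in Fli1 KO and at 63.6 and 46.2 CPM in NTC. Its 3 Fli1 KO libraries lay close together, and the lowest of them was well above the higher control. Fli1 KO averaged 122 ± 11.1 CPM (SD, n = 3) against 54.9 ± 12.3 CPM (SD, n = 2) in the control, a 2.22-fold rise (log2 fold change 1.15, SE 0.15, edgeR adjusted p = 2.2e-04). The call held in each of the 14 other settings tried, with log2 fold changes from 0.95 without NTC 2 to 1.42 without NTC 1.

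The counts cover both forms of Xbp1 mRNA, since they are summed over the gene. The intron that IRE1 removes lies inside the coding sequence of exon 4, at chr11:5524279-5524304 on the plus strand, and its 26 bases are shown in capitals because a count table cannot tell transcripts with and without them apart.
Xbp1 intron: cgCAGCACTCAGACTATGTGCACCTCTGca
How much of the added Xbp1 RNA was spliced was therefore not measured.

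Ern1, which encodes IRE1, stood at 96.0, 89.5 and 78.8 CPM in Fli1 KO and at 89.3 and 95.7 CPM in NTC (log2 fold change −0.07, SE 0.14). Atf6 stood at 92.4, 85.4 and 97.7 CPM against 84.8 and 94.4 CPM (0.04, SE 0.13), and its relative Atf6b at 37.3, 29.8 and 34.5 CPM against 34.5 and 34.3 CPM (−0.02, SE 0.15). The groups overlapped in all 3, and Fli1 KO and NTC means differed by less than the spread between libraries. The sign of Atf6 turned negative when counts were scaled to library size only, as it did in 3 further settings, and that of Ern1 turned positive in 2 and of Atf6b in 1.

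Crebrf, a regulator that limits CREB3 activity and the gene of this subgroup with the highest mean CPM, stood at 95.6, 108 and 94.5 CPM in Fli1 KO against 107 and 124 CPM in NTC (log2 fold change −0.22, SE 0.13). Its groups overlapped, with NTC 2 the highest of the 5 libraries. Creb3l2, an ER-anchored transcription factor of the CREB3 family, stood at 34.9, 28.7 and 30.2 CPM against 24.6 and 23.6 CPM (0.37, SE 0.16, edgeR adjusted p = 0.475). Its groups did not overlap, at a level of only 2.48 times background. Creb3 gave 0.25 and shared 15.2% of its exon bases with the opposite strand of Tln1, which stood at a mean of 1165 CPM, so its value is uncertain. Wfs1, an ER membrane protein that restrains ATF6, was near background (1.27 times) and gave 0.36 (SE 0.27). The median of the 8 genes was 0.14, the lowest of the 5 subgroups, with 5 positive and 3 negative. It was 0.02 when counts were scaled to library size only, where the median of all tested genes was −0.14. It was 0.08 without NTC 2 and 0.23 without Fli1 KO 2. For the 6 genes left in a fit on genes over 3 times background it was −0.12. That fit scaled the libraries anew, and the median of its 7603 genes was −0.0051, against 0.11 in the main fit.

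Hspa5 led the chaperones, and all 11 of them had positive log2 fold changes, from 0.098 (Dnajc3) to 0.71. Hspa5 (BiP), the ER member of the HSP70 family, holds unfolded chains and keeps the sensors inactive (ENSMUSG00000026864, GRCm38 chromosome 2, 34771970 to 34777547, plus strand). It stood at 400, 268 and 360 CPM in Fli1 KO and at 227 and 191 CPM in NTC. The groups did not overlap, with Fli1 KO 2 nearest to the controls. Fli1 KO averaged 342 ± 67.7 CPM (SD, n = 3) against 209 ± 25.2 CPM (SD, n = 2) in the control, a 1.64-fold rise (log2 fold change 0.71, SE 0.16, edgeR adjusted p = 0.0434). The call was lost in 6 of the 14 other settings, 3 of which left out a library. Its log2 fold change was then 0.60 without Fli1 KO 1 and 0.69 without Fli1 KO 3 (edgeR adjusted p = 0.482 and 0.426). It was 0.60 without NTC 2, which leaves NTC 1 as the only control. The smallest adjusted p of the 14 settings, 3.05e-07, came from edgeR with the replicate block described at the end. That block rests on pairs that the labels do not state.

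**Figure D2:**
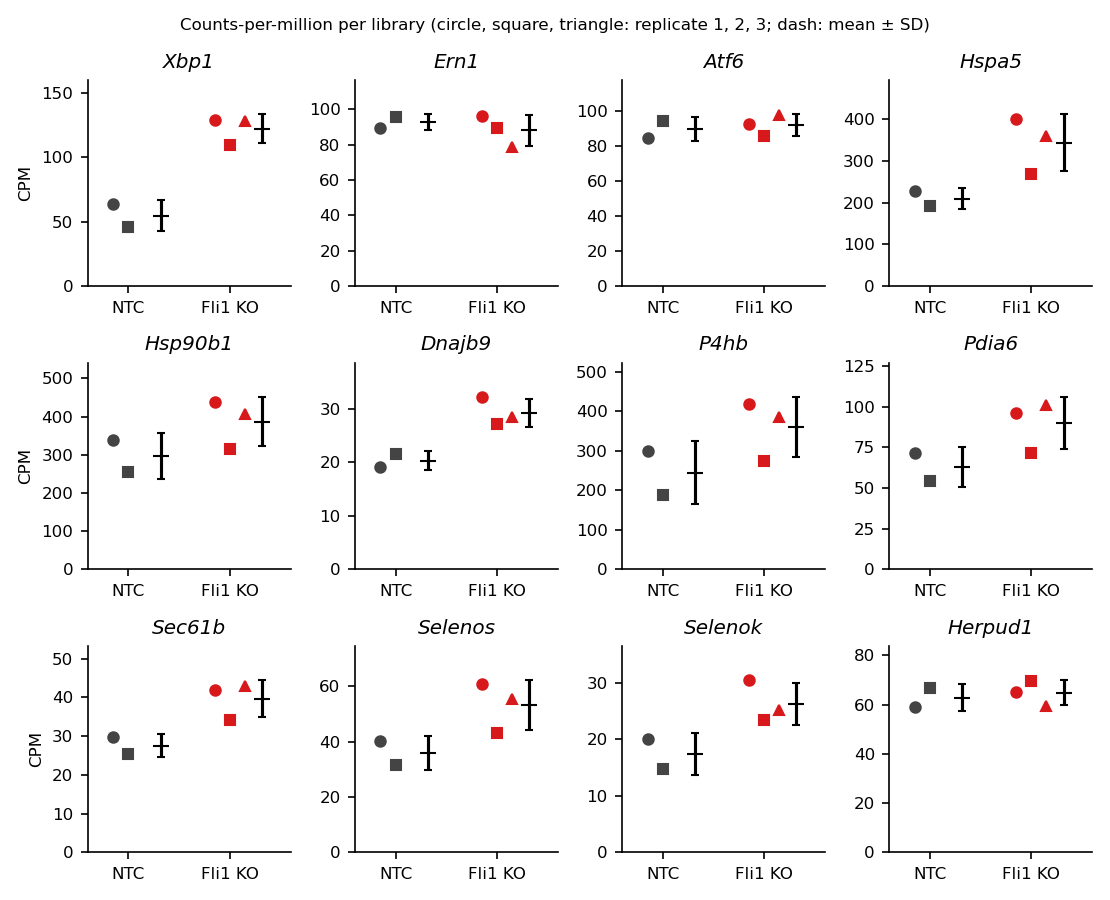
CPM of 12 of the ER genes in each library (grey, NTC; red, Fli1 KO; circle, square and triangle for replicates 1, 2 and 3), with the mean and SD of each group beside the points. Xbp1, Hspa5, Dnajb9, Sec61b, Selenos and Selenok separate the groups. Fli1 KO 2 is the lowest of its group in most panels, and the groups of Ern1, Atf6 and Herpud1 lie at one level.

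Among the partners of Hspa5 in the chaperone subgroup, Dnajb9 and Hyou1 separated the groups and the others did not. Dnajb9 (ERdj4), a co-chaperone that also restrains IRE1, stood at 32.1, 27.1 and 28.4 CPM in Fli1 KO and at 19.1 and 21.5 CPM in NTC (log2 fold change 0.53, SE 0.16, edgeR adjusted p = 0.240). Hyou1, the nucleotide exchange factor of Hspa5, stood at 109.5, 88.3 and 103 CPM against 86.2 and 70.4 CPM (0.35, SE 0.14, adjusted p = 0.439). In both the Fli1 KO libraries lay above the controls, for Hyou1 by a narrow margin between Fli1 KO 2 and NTC 1. Manf, a secreted stress factor that binds Hspa5, stood at 49.8, 39.6 and 47.6 CPM against 40.4 and 30.5 CPM (0.36, SE 0.16, adjusted p = 0.501). For Manf the groups overlapped, with Fli1 KO 2 just under NTC 1. The co-chaperones Dnajb11 (0.17, SE 0.14) and Dnajc3 (0.098, SE 0.14) differed by about their SE or less, with NTC means of 59.2 and 116 CPM and Fli1 KO means of 66.6 and 125 CPM. Sdf2l1, which works with Dnajb11, gave 0.36 with a wide error (SE 0.22), and Creld2, an ER-stress-induced folding factor, 0.24 (SE 0.20).

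The remaining chaperones are among the most abundant RNAs of the set, and none separated the groups. Hsp90b1 (GRP94), the ER form of HSP90 and the chaperone with the highest mean CPM, stood at 437, 316 and 408 CPM in Fli1 KO and at 340 and 254 CPM in NTC (log2 fold change 0.38, SE 0.16, edgeR adjusted p = 0.468). Calr, the soluble lectin chaperone calreticulin, stood at 314, 220.3 and 330 CPM against 246 and 186 CPM (0.41, SE 0.17, adjusted p = 0.452). Canx, its membrane-bound relative calnexin, stood at 287, 214 and 309 CPM against 266 and 183 CPM (0.27, SE 0.17, adjusted p = 0.703). In each, Fli1 KO 1 and 3 were the highest 2 libraries, and Fli1 KO 2 lay below NTC 1. The median of the 11 chaperones was 0.36, and 6 had an unadjusted p under 0.05. It was 0.60 without NTC 1 and 0.18 without NTC 2, and 0.22 when scaled to library size only.

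Disulfide isomerases, which form and rearrange disulfide bonds in the ER, were positive in 5 of 5 genes. P4hb, which encodes protein disulfide isomerase itself and had the highest CPM per kb of exon of all 36 genes (109.7), stood at 420, 274 and 385 CPM in Fli1 KO and at 301 and 189 CPM in NTC (log2 fold change 0.55, SE 0.21, edgeR adjusted p = 0.426). Its controls differed from each other by more than the group means did, by 0.67 on the log2 scale. Pdia6 stood at 96.4, 71.5 and 101 CPM against 71.8 and 54.3 CPM (0.51, SE 0.16, adjusted p = 0.255), and Fli1 KO 2 and NTC 1 were almost equal. Pdia4 stood at 118, 80.8 and 113 CPM against 87.9 and 76.9 CPM (0.33, SE 0.16, adjusted p = 0.541). Pdia3, which serves glycoproteins held by calnexin and calreticulin, gave 0.21 (SE 0.15), and Dnajc10, a reductase that prepares proteins for ERAD, 0.16 (SE 0.14). Dnajc10 was the only 1 of the 5 to separate the groups upwards, as 26.3% of genes over 3 times background did. The gap was small, with Fli1 KO 2 at 60.5 CPM and NTC 1 at 59.8 CPM. The median of the 5 was 0.33 (0.51 without Fli1 KO 2, 0.20 when scaled to library size only). On all libraries and without a block for the replicate number, edgeR, DESeq2 and limma-voom called 0 of the 5. In edgeR 3 had an unadjusted p under 0.05. With that block, described at the end, edgeR called P4hb and Pdia6 of these.

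The translocon passes new chains into the ER, and both of its measured subunits leaned higher. Sec61b, the beta subunit, stood at 41.8, 34.2 and 42.9 CPM in Fli1 KO and at 29.6 and 25.5 CPM in NTC (log2 fold change 0.52, SE 0.16, edgeR adjusted p = 0.226), without overlap. Sec61a1, the channel itself, stood at 172, 131 and 168 CPM against 132 and 111 CPM (0.37, SE 0.15, adjusted p = 0.426), where Fli1 KO 2 lay just under NTC 1. On all libraries and without the replicate block, edgeR, DESeq2 and limma-voom called 0 of the 2. In edgeR both had an unadjusted p under 0.05. With the block edgeR called Sec61b and not Sec61a1.

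ERAD genes ranged from −0.47 to 0.58. Selenos and Selenok, selenoproteins that tie the VCP ATPase to the ER membrane, gave the largest values. Selenos stood at 60.7, 43.2 and 55.6 CPM in Fli1 KO and at 40.2 and 31.5 CPM in NTC (log2 fold change 0.56, SE 0.16, edgeR adjusted p = 0.190). Selenok stood at 30.5, 23.4 and 25.2 CPM against 20.1 and 14.8 CPM (0.58, SE 0.18, adjusted p = 0.250). Both separated the groups. Derl1, a derlin of the retrotranslocation channel, stood at 70.8, 64.0 and 70.1 CPM against 56.7 and 48.0 CPM (0.38, SE 0.14, adjusted p = 0.359), and its groups also separated. Syvn1, the ubiquitin ligase HRD1, stood at 22.8, 21.05 and 20.2 CPM against 15.8 and 16.3 CPM (0.41, SE 0.17, adjusted p = 0.460), without overlap but at only 2.52 times background.

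Edem1, which extracts misfolded glycoproteins from the folding cycle and had the highest mean CPM of the ERAD genes, stood at 177, 140 and 163 CPM in Fli1 KO and at 137 and 127 CPM in NTC (log2 fold change 0.28, SE 0.14, edgeR adjusted p = 0.583). Its groups were separated by the small gap between Fli1 KO 2 and NTC 1. Sel1l, the adaptor of HRD1, gave 0.07 (SE 0.13) and Herpud1, its scaffold and a gene induced by ER stress, 0.05 (SE 0.14). Herpud1 stood at 65.2, 69.6 and 59.4 CPM against 58.9 and 66.6 CPM, so neither gene differed by more than its spread. Both turned negative when scaled to library size only, where the median of all tested genes was −0.14, as did Dnajc3. All 3 were also negative in the fit on genes over 3 times background. The median of those 7603 genes was −0.0051 there, against 0.11 in the main fit. Herpud1 was negative without NTC 1 as well. Derl2 and Edem2 gave 0.17 each. Derl3, the derlin of professional secretory cells, was at background (0.854 times, 14 raw counts in Fli1 KO 1) and its value of −0.47 (SE 0.37) cannot be told from background. The median of the 10 was 0.23, with 9 positive, where 70.5% of genes over 3 times background were. Groups separated upwards in 5 and downwards in 1 (Derl3), against 26.3% and 7.8% of genes over 3 times background. On all libraries and without the replicate block, edgeR, DESeq2 and limma-voom called 0 of the 10. In edgeR 4 had an unadjusted p under 0.05. With the block edgeR called Selenos and Selenok alone of these. The median was 0.09 when scaled to library size only and 0.34 without NTC 1.

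By subgroup medians Fli1 KO 1 and 3 were the 2 highest libraries and NTC 2 the lowest in all 5 subgroups, while Fli1 KO 2 and NTC 1 changed places between subgroups. Fli1 KO 1 was the highest library in 24 of the 36 genes and Fli1 KO 3 in 9, while NTC 2 was the lowest in 25. Fli1 KO 2 was the lowest of its group in 30 genes (65.1% of the genes over 3 times background) and lay below NTC 1 in 20. Fli1 KO 1 and 3 both lay above both controls in 28. Relative to each gene's mean over the 5 libraries, the chaperones had medians of 0.28, −0.16 and 0.21 (log2 scale) in Fli1 KO 1, 2 and 3 and of −0.04 and −0.44 in NTC 1 and NTC 2. The isomerases followed the same order at 0.32, −0.14 and 0.27 against −0.07 and −0.29. The sensors and transcription factors spread far less, from −0.11 in NTC 2 to 0.12 in Fli1 KO 1. The genes over 3 times background had medians of 0.13, −0.05, 0.07, 0.01 and −0.14 in the same libraries, an order shared with the chaperones at a smaller size. In the sensors, the translocon and ERAD the median of Fli1 KO 2 lay above that of NTC 1, and in the chaperones and isomerases below it. What set the order of the libraries was not tested.

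**Figure D3:**
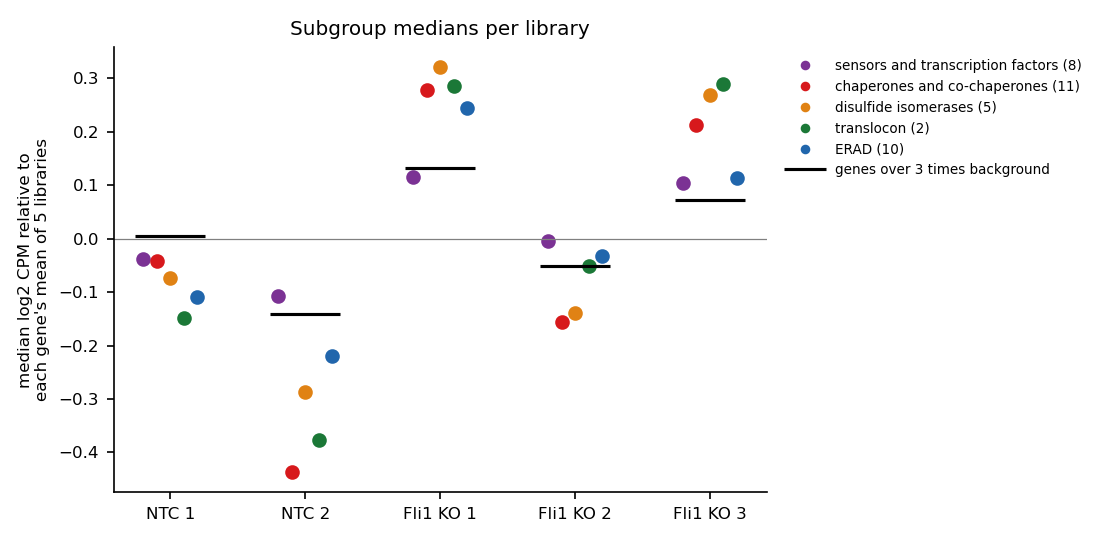
Median log2 CPM per library of each subgroup, relative to each gene's mean over the 5 libraries, with the number of genes in the legend and a black bar for genes over 3 times background. All 5 subgroups lie highest in Fli1 KO 1 and 3 and lowest in NTC 2, and the chaperones (−0.16) and isomerases (−0.14) of Fli1 KO 2 lie below those of NTC 1.

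The size of the difference depended on which control library was used. The mean of Fli1 KO over NTC 1 had a median log2 ratio of 0.18 over the 36 genes, and over NTC 2 of 0.44, against 0.05 and 0.20 over the genes more than 3 times above background. For the chaperones the values were 0.18 and 0.58. Xbp1 was 0.94 and 1.40, Hspa5 0.60 and 0.84, Dnajb9 0.61 and 0.44, Syvn1 0.44 and 0.39, Sec61b 0.42 and 0.64, Selenos 0.40 and 0.75, and Selenok 0.39 and 0.83. These 7 genes lay furthest above the nearer of their controls. P4hb gave 0.26 and 0.93, Canx 0.02 and 0.57 and Creld2 −0.04 and 0.63. Against NTC 2 alone, with this single library assumed to vary as much as the Fli1 KO group does, 9 of the 36 genes were called higher and 0 lower (2.14% and 0.529% of the genes tested there). They were Xbp1, Hspa5, Hsp90b1, Calr, Canx, P4hb, Pdia6, Selenos and Selenok. Without Fli1 KO 2 there were 3 called higher, with Selenos added, and without Fli1 KO 1, Fli1 KO 3 or NTC 2 only Xbp1. The median of the 36 genes was 0.46 without NTC 1 and 0.18 without NTC 2. It was 0.21 when scaled to library size only, and 0.18 over the 32 genes left in the fit on genes over 3 times background. The median of all 7603 genes in that fit was −0.0051, against 0.11 in the main fit.

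**Figure D4:**
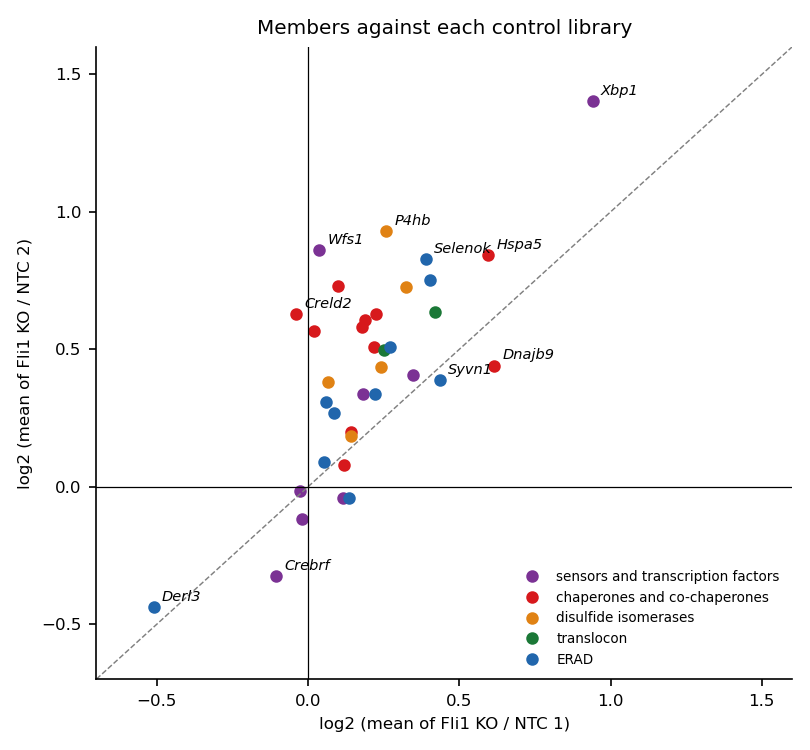
Log2 ratio of the Fli1 KO mean to NTC 1 (horizontal) and to NTC 2 (vertical) for each of the 36 genes, coloured by role, with the line of equal ratios dashed. Xbp1 stands at 0.94 and 1.40, most chaperones and isomerases lie well above the line, and Dnajb9 and Syvn1 are among those below it.

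Promoter sequences were compared because both transcription factors act on the ERSE, which reads CCAAT, 9 bases of any kind and CCACG, and was searched on both strands from 250 bases before to 50 after each RefSeq start (GRCm38.p6). RefSeq entries were found for 31 of the 36 genes. An exact ERSE was present in 9 of the 31 and in 0.119% of all 32851 promoters. Since most of the listed genes are linked to XBP1 and ATF6, this contrast describes the list and is no test. The shorter ERSE-II, which reads ATTGG, 1 base of any kind and CCACG, was present in 2 (Herpud1 and Dnajb11) and in 0.037% of all promoters. The element TGACGTGG, bound by XBP1 and ATF6, was in 0 of the 31 and in 0.676% of all, and the ETS letters CCGGAAGT in 3 and in 3.89%. The following sites, with 5 bases on each side, run along the gene's strand with the fixed letters of the element in capitals, and were chosen because their genes span the range of log2 fold changes.
Hspa5: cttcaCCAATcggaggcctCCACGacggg
Pdia6: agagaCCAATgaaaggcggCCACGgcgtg
Calr: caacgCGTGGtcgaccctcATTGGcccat
Dnajc3: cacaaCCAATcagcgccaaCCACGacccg
Derl3: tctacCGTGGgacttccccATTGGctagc
Herpud1: cgctgATTGGgCCACGttgga
They lie at chr2:34772020-34772048 (plus strand), chr12:17266486-17266514 (plus), chr8:84847070-84847098 (minus), chr14:118937822-118937850 (plus), chr10:75893237-75893265 (plus) and chr8:94386372-94386392 (plus), and in Calr and Derl3 the element reads on the opposite strand. Hsp90b1 holds a pair of exact elements, and Canx, Creld2 and Syvn1 hold 1 each.

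Whether the changes of genes that share the element differ by more than their errors was not tested. Of the 9 ERSE genes 8 were positive, and their median was 0.38. The positive ones ran from 0.098 in Dnajc3 (SE 0.14) through 0.41 in Calr and 0.51 in Pdia6 to 0.71 in Hspa5 (SE 0.16). The other, Derl3 at −0.47 (SE 0.37), was at background. The other 22 genes with a promoter entry, which include Herpud1 and Dnajb11 with an ERSE-II, had a median of 0.26. Xbp1, the highest at 1.15, was among the 22, with no exact ERSE in this window. The 11 genes with an exact ERSE or ERSE-II had a median of 0.27. Groups separated upwards in 2 of the 9 and in 8 of the 22, against 2320 of the 17556 tested genes with a promoter entry and 26.3% of genes over 3 times background. Outside the list, 24 tested genes had an exact ERSE, with a median of −0.08 and 0 called by edgeR in either direction. Only 3 of these lay over 3 times background, Hnrnpa3 at 0.24, Alg12 at −0.01 and Pan2 at −0.11, and the element of Alg12 is the same site as that of Creld2. A match to these letters is a description and does not show that a factor bound there.

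**Figure D5:**
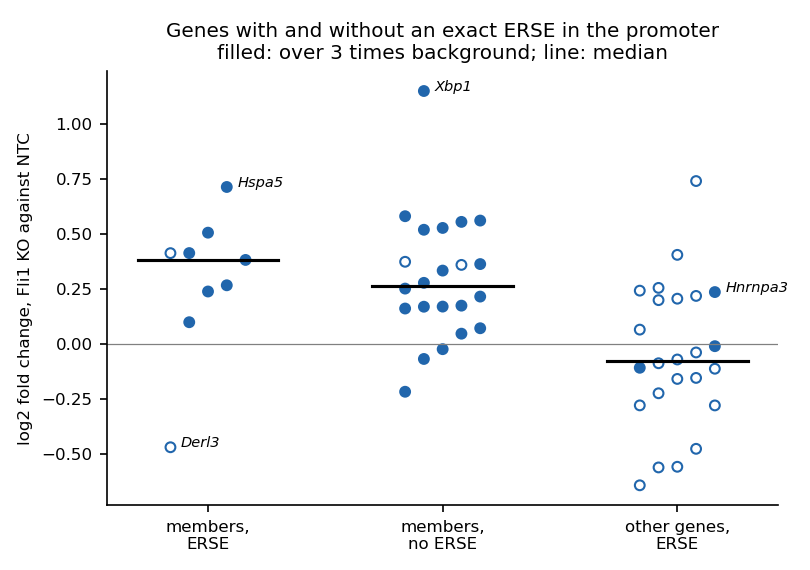
Log2 fold change in Fli1 KO against NTC of ER genes with an exact ERSE (9), of ER genes without one (22) and of other tested genes with one (24), with lines for the medians of 0.38, 0.26 and −0.08. Filled points lie over 3 times background, and only 3 of the other genes do.

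Neighbouring steps of the pathway were read from 58 further ER genes, of which 57 were tested. edgeR called 0 of them higher and 0 lower (16 higher and 0 lower at an unadjusted p under 0.05, where 15.4% of genes over 3 times background were higher), DESeq2 called 0, and limma-voom called only Ero1a. Their median was 0.21, with 52 of 57 positive, against 70.5% of genes over 3 times background. The oligosaccharyltransferase, which attaches glycans to chains entering the ER, was positive in 8 of 8 genes with a median of 0.39, and 6 had an unadjusted p under 0.05. Its catalytic subunit Stt3a stood at 132, 101 and 128 CPM in Fli1 KO and at 93.4 and 81.9 CPM in NTC (log2 fold change 0.46, SE 0.15, edgeR adjusted p = 0.255). Translocation and signal cleavage genes were positive in 14 of 14 (median 0.22), and further folding genes in 14 of 15 (0.23). Further ERAD genes had a median of 0.09 and the 4 genes of ATF6 transport and cleavage of 0.11. The smallest p values after Stt3a and Erp44 (0.48, a retention factor for ER proteins) were those of Ube2j2, an ERAD ubiquitin-conjugating enzyme (0.41), and Tmx4, a membrane-bound isomerase relative (0.37). The median of the 57 was 0.37 with 7 genes called without NTC 1, 0.34 without Fli1 KO 2, 0.13 without Fli1 KO 1 or NTC 2 and 0.07 when scaled to library size only.

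Plasma cells carry high Xbp1 and ER gene levels, so their markers were examined in the same libraries. Of 7 plasma cell markers, 2 lay over 3 times background, Ighm and the ER gene Txndc5. Of the other 5, Sdc1, Tnfrsf17 and Mzb1 lay below the background density, at 0.907, 0.699 and 0.457 times, and Jchain and Igkc above it, at 1.54 and 1.91 times. The summed markers stood at 108 to 128 CPM in Fli1 KO and 133 to 153 CPM in NTC. Most of that sum was Ighm, with means of 55.9 CPM in Fli1 KO and 78.5 CPM in NTC, and Txndc5, with means of 50.3 and 47.2 CPM. The part of these markers in the values of the ER genes was not tested. Macrophage and monocyte markers (1 of 6 over 3 times background, Cd68) summed to 32.3 to 33.3 CPM in Fli1 KO and 30.7 to 38.1 CPM in NTC. In bulk RNA a change in the share of a cell state and a change of RNA per cell cannot be told apart.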

How the data were processed

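RNA-seq libraries, 3 of Fli1 KO and 2 of NTC, were prepared by an enrichment protocol starting from 10 ng of RNA, per the labels' protocols. The submitters' processing notes list FastQC (0.12.0), Trimmomatic (0.39), STAR (2.7.11) and the build mm10, and neither the counting program nor its use of strand is stated there. The values are raw whole-number counts, deposited by the authors for each Ensembl gene. Symbols, coordinates and exon lengths came from GENCODE M21 (GRCm38), and 91.9% of IDs had a symbol.

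Genes were filtered with filterByExpr (minimum 10 counts), scaled with TMM and tested by quasi-likelihood with robust dispersion in edgeR (version 4.0.16, under R 4.3.3), with Benjamini-Hochberg adjustment over all genes tested. The SE came from the coefficient and its F statistic. Alternatives were other scalings and filters, each library left out, limma-voom (3.58.1), DESeq2 (1.42.0) and a block for the replicate number. A fit on genes over 3 times background was added after seeing the data. In simulated data on 30580 genes, Fli1 KO against NTC, changes were planted in genes drawn from those with a mean over 10 CPM. There 32.8% of 1.5-fold, 91% of 2-fold and 100% of 4-fold changes were recovered, and 8 of 157 calls were false.

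The genes, lists, tests and naming rule were chosen with earlier results of these data known. Genes named with every library's value were those called or at an unadjusted p under 0.05, the gene of highest mean CPM in each subgroup, and examples without a call. Ero1a, Canx and other examples were chosen after their values were seen. Ero1a and Ero1b were matched through RefSeq synonyms.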

Additional observations from a re-analysis of the deposited data

How the results depend on the processing

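Xbp1 kept its call in all 14 alternatives, and Hspa5 in 8. Over all genes, the calls numbered 140 (higher) and 27 (lower), against 92 and 71 with library size alone, 239 and 56 without the filter, 46 to 703 and 3 to 174 with 1 library left out, and 59 lower in the fit on genes over 3 times background. Of the 36 ER genes, 2 were called higher, 1 with DESeq2's size factors, with library size alone or with limma-voom, and 1 to 9 with 1 library left out. Of the 57 other ER genes, 0 were called higher, 1 with limma-voom and 0 to 7 with 1 library left out. The sensors' median of 0.14 was 0.016 with library size alone and 0.0794 to 0.2331 with 1 library left out. It reversed to −0.12 in the fit on genes over 3 times background, which drops Wfs1 and Creb3l2 and scales the libraries anew. The median of the 7603 genes in that fit was −0.0051, against 0.11 in the main fit. The ERAD median of 0.23 was 0.0933 with library size alone. The other medians moved by less than the spread between libraries (0.165 to 0.25 on the log2 scale).

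With the replicate number as a block, 728 of the 30580 genes tested were called higher and 193 lower. Those called higher included 8 of the 36 ER genes (Xbp1, Hspa5, Dnajb9, P4hb, Pdia6, Sec61b, Selenos and Selenok) and 8 of the 57 other ER genes. Number 3 occurs in Fli1 KO alone, so Fli1 KO 3 had a block to itself and added nothing to that contrast. The contrast rested on the 2 equal-numbered pairs, with 1 residual degree of freedom per gene. Deviations of equal-numbered libraries correlated at 0.317 for number 1 and 0.467 for number 2, and those of Fli1 KO 3 and NTC 1 at 0.23. With 2 NTC libraries each Fli1 KO library must lean towards one of them, the labels do not say what a number shares, and 2 pairs cannot settle it. At these depths the test recovered 32.8% of simulated 1.5-fold changes, planted in genes above a minimum mean level that Wfs1 and Derl3 did not reach. All of the 36 ER genes except Xbp1 and Hspa5 had fitted changes below that size.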

Other observations

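Ero1a, the oxidase that recharges protein disulfide isomerase and a gene also induced by hypoxia, had the largest log2 fold change of any ER gene examined, above that of Xbp1. It stood at 251, 131 and 184 CPM in Fli1 KO and at 98.8 and 43.7 CPM in NTC (log2 fold change 1.40, SE 0.51, edgeR adjusted p = 0.573). The groups did not overlap, but NTC 1 and NTC 2 lay further apart, as a ratio, than any pair of Fli1 KO libraries, and it was called by limma-voom, without NTC 1 and with the replicate block. Its relative Ero1b, with an exact ERSE in its promoter, stood near background (1.85 times) at 0.20.

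Of the 9 NK markers, the 3 that encode secreted cargo were also highest in Fli1 KO 1 and 3 and lowest in NTC 2. Gzmb, a granzyme, stood at 2894, 1601 and 2588 CPM in Fli1 KO and at 2029 and 1061 CPM in NTC, and Gzma at 5015, 3195 and 3947 CPM against 3384 and 2089 CPM. Prf1, which encodes perforin, stood at 1623, 1017 and 1395 CPM against 923 and 550.5 CPM. Fli1 KO 2 lay below NTC 1 for Gzmb and Gzma, as for most chaperones, and above it for Prf1, and none of the 3 was called by edgeR (adjusted p from 0.192 to 0.692). The surface receptors among the markers did not share this direction. For Ncr1 and Klrk1 all Fli1 KO libraries lay below both controls (log2 fold change −0.34 and −0.27). Klrb1c was near level (−0.02), and Il2rb was higher without overlap (0.50).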
